A study of Mus musculus with 8 samples.

Results

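The genes described here encode 10 proteins that the liver secretes into blood plasma: the fetuins and their relative Ahsg, Fetub and Hrg, the scavengers Hp and Hpx, the carrier Orm1, the pentraxin Apcs, and the inter-alpha-inhibitor heavy chains Itih1, Itih3 and Itih4. They were taken by name, as 10 of the 21887 protein-coding genes on nuclear chromosomes. Ends of paired-end tags (PETs) were counted over each gene and 2.5 kb either side, for each experiment. The assay was ChIA-PET for RNA polymerase II (Pol II): chromatin is immunoprecipitated with a Pol II antibody, here 8WG16, DNA ends held in one complex are ligated through a linker, and a short tag is read from each side. A PET is therefore one ligated pair, and how densely PET ends cover a gene reflects how much of its chromatin was recovered as well as how often it was ligated.

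All livers came from wild-type C57BL/6 mice aged 3 to 6 months, fed freely under 12 h of light and 12 h of dark, and collected at ZT06, the middle of the day, or at ZT18, the middle of the night. Chromatin of 3 to 7 livers was pooled. Experiments 1 and 3 were fixed with 1.5 mM EGS, a second crosslinker with a longer reach, and 1% formaldehyde, and experiment 2 with 1% formaldehyde alone. The labels describe 8 libraries (4 in experiment 1, 2 in experiment 2 and 2 in experiment 3), with equal numbers at ZT06 and ZT18, but the table of PETs names only the experiment. Each experiment is thus 1 pool of day and night libraries, there are no replicates behind any value, and no test between conditions was made. Intervals are 95% exact Poisson intervals for densities and rates, and Clopper-Pearson intervals for shares. They cover counting error only. Each end is treated as independent, so they are too narrow where both ends of a PET lie over a gene.

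The fetuins are cystatin-family plasma proteins of hepatocytes. Fetuin-A, from Ahsg, binds calcium phosphate and is known as a negative acute-phase protein in humans, and fetuin-B, from Fetub, inhibits the egg protease ovastacin. In an acute-phase response, interleukin-6 and related cytokines act on hepatocytes through STAT3 and C/EBP factors and change the output of plasma proteins, with haptoglobin, hemopexin and alpha-1-acid glycoprotein among those known to rise. Ahsg, Fetub and Hrg lie side by side on chromosome 16, and Itih4, Itih3 and Itih1 side by side on chromosome 14.

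The bases just upstream of 4 starts are shown for 4 members, since Ahsg carried the densest PET ends of the set, Hpx came next to it in experiment 1, and a PET joined the regions upstream of the Itih4 and Itih1 starts. They are the 250 bases before the annotated start from RefSeq on GRCm38.p6, 5′ to 3′ on the gene's strand, with capitals marking matches to the motifs named after them.
Ahsg, chr16:22891765-22892014, plus strand: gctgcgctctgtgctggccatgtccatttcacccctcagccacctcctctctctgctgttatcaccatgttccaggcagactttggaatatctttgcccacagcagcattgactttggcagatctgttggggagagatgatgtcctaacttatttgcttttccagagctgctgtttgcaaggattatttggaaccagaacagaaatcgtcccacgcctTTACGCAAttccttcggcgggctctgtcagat
Hpx, chr7:105600117-105600366, minus strand: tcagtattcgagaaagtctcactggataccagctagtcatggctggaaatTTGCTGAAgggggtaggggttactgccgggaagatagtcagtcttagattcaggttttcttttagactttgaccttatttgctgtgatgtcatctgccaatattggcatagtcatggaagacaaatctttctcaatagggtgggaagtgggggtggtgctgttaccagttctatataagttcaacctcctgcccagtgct
Itih4, chr14:30886226-30886475, plus strand: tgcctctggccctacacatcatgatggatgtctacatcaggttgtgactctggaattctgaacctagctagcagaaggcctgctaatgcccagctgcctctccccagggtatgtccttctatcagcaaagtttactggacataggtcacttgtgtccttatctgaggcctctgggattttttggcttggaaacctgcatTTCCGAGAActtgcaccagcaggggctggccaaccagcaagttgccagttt
Itih1, chr14:30943290-30943539, minus strand: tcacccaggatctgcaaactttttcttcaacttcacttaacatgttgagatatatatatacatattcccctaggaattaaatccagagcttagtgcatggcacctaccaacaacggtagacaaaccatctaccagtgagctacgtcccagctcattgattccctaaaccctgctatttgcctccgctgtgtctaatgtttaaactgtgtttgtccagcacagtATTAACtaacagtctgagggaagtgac
Letters were searched on both strands for 6 motifs in the 250 bases upstream. The Ahsg capitals match TTGCNNAA, a C/EBP-type motif, on the opposite strand at positions -32 to -25 from the start, and those of Hpx match it at -200 to -193. The Itih4 capitals match TTCNNNGAA, a STAT3-type motif, at -51 to -43. The Itih1 capitals match GTTAAT, the repeat unit of an HNF1-type motif, on the opposite strand at -27 to -22. Among 8 members with a start in the table, C/EBP letters were in 3 (also Hrg, at -133 to -126) and STAT3 letters in 2 (also Apcs, at -244 to -236). TATAAA was upstream of the first Fetub start, at -31 to -26, and TGTTTAC, a FOXA-type motif, upstream of its second start, at -236 to -230. No member matched the E-box CACGTG. Of 32851 annotated starts, 9.56% held the C/EBP letters, 7.02% the STAT3 letters, 12.4% TATAAA, 6.43% GTTAAT, 3.17% TGTTTAC and 6.02% CACGTG. These motifs can overlap other sites, and a match is a description of letters only.

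The experiments differed in depth. The table held 474478, 1438866 and 840210 PETs in experiments 1, 2 and 3, and the mean density over the nuclear genome was 0.349, 1.06 and 0.616 ends per kb. Densities below are divided by that mean of the same experiment and called relative density. The median protein-coding gene had a relative density of 1.22, 1.20 and 1.42. Liver identity was visible in the hepatocyte markers: 5 of 6 reached a relative density of 2 in every experiment (Cps1 was at 1.45 in experiment 2), and their median was 67.6, 8.35 and 13.3. Of markers for macrophages (4), endothelium (4), stellate cells (4), cholangiocytes (3), blood (3) and other tissues (5), only the cholangiocyte marker Sox9 reached 2 in every experiment. In such whole-liver pools fewer cells of a type and less Pol II per cell cannot be told apart.

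Every one of the 10 genes was denser in PET ends than the nuclear mean in experiment 1, with a median relative density of 10.2, and the set was nearer to the mean in experiment 2 (median 1.98) and experiment 3 (median 3.39). A relative density of at least 2 was reached by 10 members in experiment 1, where 27.7% of protein-coding genes did, by 5 in experiment 2, where 6.52% did, and by 8 in experiment 3, where 25.4% did. The 5 that reached 2 in all experiments were Ahsg, Hp, Hpx, Itih3 and Itih4, beside 5.32% of protein-coding genes. Itih3 passed narrowly, at 2.01 in experiment 2, and was lost there with only PETs between chromosomes (1.53), relative to the median gene (1.68) and with each PET counted once (1.73). Ahsg alone reached 5 in all experiments, beside 0.388%. The members were chosen with earlier results known, so these counts describe the set and are not a test of it.

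**Figure D1:**
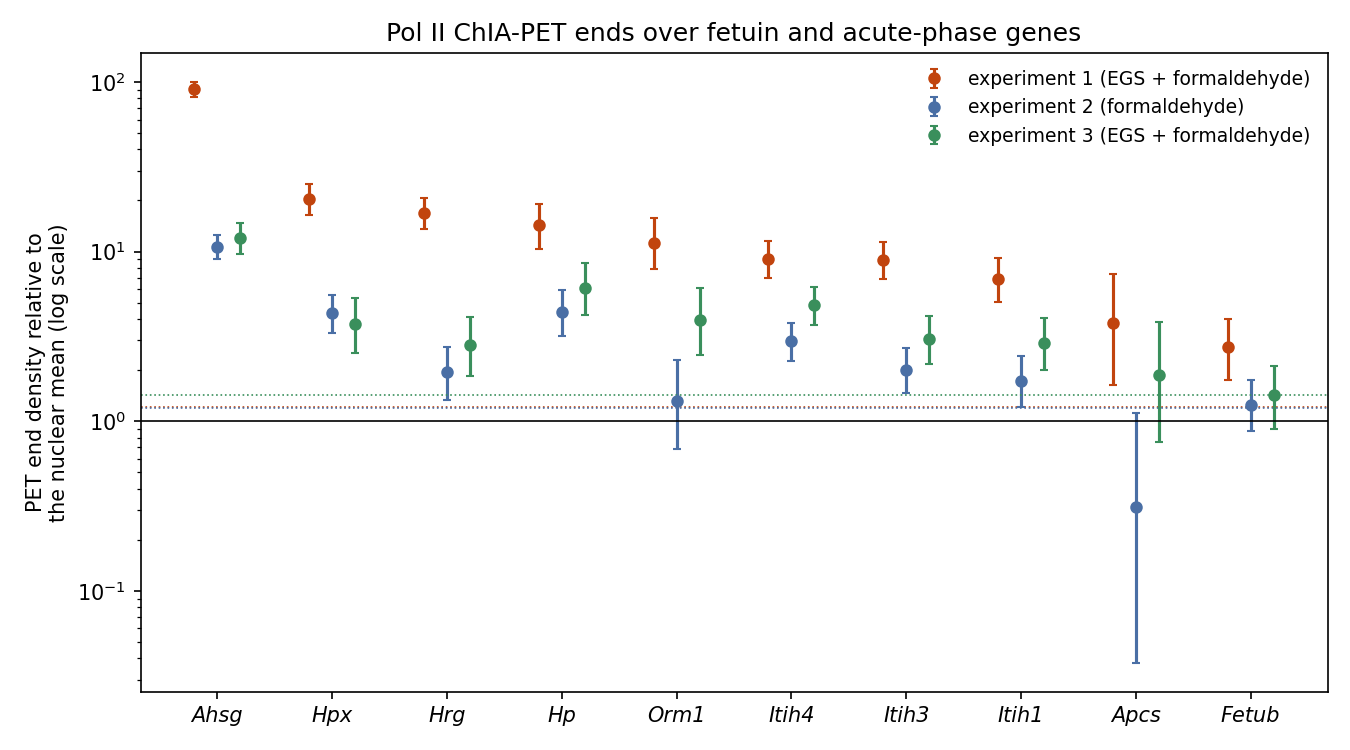
Density of PET ends over each gene and 2.5 kb either side, relative to the nuclear mean, on a log axis. Points are the 3 experiments, bars the 95% exact Poisson intervals, dotted lines the median protein-coding gene and the solid line the nuclear mean. Ahsg stands above the next gene in each experiment, and experiment 1 is the highest for every gene.

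Ahsg (16:22892015-22899451, plus strand) had 392, 141 and 92 ends in experiments 1, 2 and 3. The nuclear mean would give 4.34, 13.1 and 7.66. Its relative density was 90.4 (81.7 to 99.8), 10.7 (9.03 to 12.6) and 12.0 (9.69 to 14.7), rank 5, 11 and 39 of all protein-coding genes. The size depended on the counting rule. In experiment 1 it was 64.7 with only PETs between chromosomes, 70.1 with each PET counted once and 74.4 relative to the median gene. All of these lay below the interval. Ahsg was the one member whose interval lay clear of the next member's in all 3 experiments. Next below it was Hpx at 20.4 in experiment 1 and Hp at 4.39 and 6.11 in the others. Below these, no gene's interval was clear of its neighbour in the order. By itself Ahsg supplied 45.3%, 30.1% and 25.0% of all ends over the 10 genes.

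Its 2 neighbours on chromosome 16 were unlike it. Fetub (16:22918382-22939768, plus strand) had 25, 35 and 23 ends, a relative density of 2.72 (1.76 to 4.01), 1.25 (0.874 to 1.75) and 1.42 (0.898 to 2.12). In experiments 2 and 3 its interval thus spanned the nuclear mean. Hrg (16:22951072-22961659, plus strand), whose product, histidine-rich glycoprotein, binds heparin, plasminogen and metal ions, had 92, 32 and 27 ends. That gave 16.9 (13.6 to 20.8), 1.94 (1.33 to 2.74) and 2.81 (1.85 to 4.09), so that Hrg lay above Fetub in experiment 1 while their intervals overlapped in experiments 2 and 3. Outside the 3 genes, Dnajb11, an endoplasmic reticulum co-chaperone, had 8.78, 1.87 and 2.06, and Kng2, a kininogen of the same cystatin superfamily, had 1.37, 0.451 and 0.404.

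Of the scavengers, Hp (8:109575128-109579172) encodes haptoglobin, which captures free hemoglobin. It had 45, 42 and 34 ends and a relative density of 14.3 (10.4 to 19.1), 4.39 (3.17 to 5.94) and 6.11 (4.23 to 8.53). Its window shares 1424 bp with Txnl4b, so ends there belong to both, and over the gene alone its relative density in experiment 2 was 7.72. Hpx (7:105591611-105600116, minus strand) encodes hemopexin, which captures free heme, and had 96, 62 and 31 ends. Its relative density was 20.4 (16.5 to 24.9), 4.34 (3.33 to 5.57) and 3.73 (2.53 to 5.29). The intervals of the 2 scavengers overlapped in each experiment.

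Orm1 (4:63344556-63348163), for alpha-1-acid glycoprotein, a carrier of small lipophilic molecules, had 34, 12 and 21 ends. Its relative density was 11.3 (7.85 to 15.8), 1.32 (0.681 to 2.30) and 3.96 (2.45 to 6.06), so it stood above the nuclear mean in experiments 1 and 3 and its interval spanned the mean in experiment 2. Its window shares 2552 bp with the long non-coding RNA gene Gm52743, and over the gene alone Orm1 was at 18.3 in experiment 1. Orm1 has near-identical copies beside it: Orm2 had 1, 3 and 5 ends (0.340, 0.337 and 0.964) and Orm3 had 4, 4 and 2 (1.36, 0.448 and 0.385). The placing of reads that match several copies was not given in the sources used here, so the split among them is uncertain. Apcs (1:172893961-172895054, minus strand), for serum amyloid P, the pentraxin that serves as a main acute-phase protein in mice, had 8, 2 and 7 ends. At 3.77 (1.63 to 7.42), 0.310 (0.0376 to 1.12) and 1.87 (0.750 to 3.84) it had the fewest ends of the 10 genes in each experiment, and its values rest on them. In experiment 1, 6 of its 8 ends lay in PETs of at most 2 kb. With only PETs between chromosomes Apcs was at 1.29 there, below 2. Its relative density was the lowest in experiment 2, and that of Fetub was lower in experiments 1 and 3, with overlapping intervals.

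Of these inter-alpha-inhibitor heavy chains, those of Itih1 and Itih3 link to hyaluronan and stabilise extracellular matrix, and Itih4 encodes an acute-phase member of the family. Itih4 (14:30886476-30901986, plus strand) had 65, 64 and 61 ends, a relative density of 9.09 (7.02 to 11.6), 2.95 (2.27 to 3.77) and 4.83 (3.70 to 6.21). Itih3 (14:30908572-30923787, minus strand) had 63, 43 and 38 ends, at 8.94 (6.87 to 11.4), 2.01 (1.46 to 2.71) and 3.05 (2.16 to 4.19). Itih1 (14:30929180-30943289, minus strand) had 46, 35 and 34 ends, at 6.91 (5.06 to 9.21), 1.73 (1.21 to 2.41) and 2.89 (2.00 to 4.04). The order Itih4, Itih3, Itih1 held in each experiment, with overlapping intervals between neighbours. The genes that flank the cluster were lower: Mustn1 at 0.780, 1.29 and 1.77, and Nek4 at 1.28, 0.891 and 0.918.

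All 10 members had an interval in experiment 1 wholly above that in experiment 2, as did 17.4% of protein-coding genes. Against experiment 3 it was 8 of 10, beside 6.86%, with Fetub and Apcs the exceptions. Experiment 3 lay wholly above experiment 2 for Orm1 alone, beside 12.0%. The ratio of relative density between experiments 1 and 2 had a median of 4.57 over the members, from 2.17 for Fetub to 12.1 for Apcs (from 8 and 2 ends), and 1.16 over all protein-coding genes. Between experiments 3 and 2 it was 1.48 and 1.25. Experiment 2 differed from the others in crosslinking, experiment 1 from the others in library number, and all 3 in depth. With 1 pool each, the part of any of these was not tested.

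Within an experiment the linker carried by a PET, TAAG or ATGT, makes 2 subsets of a meaning not given in the sources used here. In experiment 2, Ahsg had a relative density of 17.9 (13.5 to 23.4) with ATGT and 8.58 (6.87 to 10.6) with TAAG, and Hp 8.22 (4.87 to 13.0) and 3.26 (2.09 to 4.84). These were the 2 members with intervals apart in experiment 2, where 1.84% of protein-coding genes had them apart. None were apart in experiments 1 and 3, beside 1.46% and 0.699%. The Hp intervals of experiment 2 nearly met, at 4.87 and 4.84, and are too narrow where both ends of a PET are counted. The median protein-coding gene of experiment 2 had 1.20 with ATGT and 1.17 with TAAG, while PETs with ends at most 8 kb apart made up 10.9% of the ATGT PETs and 4.84% of the TAAG PETs. The part of such short PETs in the Ahsg and Hp difference was not tested.

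Along Ahsg the ends covered the gene and ran past its annotated end. The densest 500 bp bin lay 0 to 0.5 kb from the start in experiment 2 (29 ends, relative density 54.9) and in experiment 3 (13 ends, 42.2). In experiment 1 the densest bin was 8.5 to 9.0 kb from the start (44 ends, 252), beyond the 7437 bp gene, and the bin at the start had 32 ends (184). In experiment 1 the 2.5 kb past the end of Ahsg had a relative density of 147 (123 to 175), against 96.8 over the gene and 14.9 in the 2.5 kb before it. The ratio of the stretch past the end to the gene was 1.52 (1.22 to 1.88), 1.39 (0.933 to 2.03) and 0.912 (0.515 to 1.54) in experiments 1, 2 and 3. Over the other 7 members with a known start it was 0.826 (0.601 to 1.11), 0.692 (0.456 to 1.02) and 0.514 (0.297 to 0.836), and over all protein-coding genes 1.75, 0.984 and 1.25. This comparison was chosen after the profiles had been seen. The window of Ahsg also holds parts of 2 long non-coding RNA genes, Gm30505, which covers 2372 bp of Ahsg, and Gm30611, which shares 1402 bp of the window past its end. PET ends carry no strand of transcription, so ends there cannot be assigned to one of them.

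**Figure D2:**
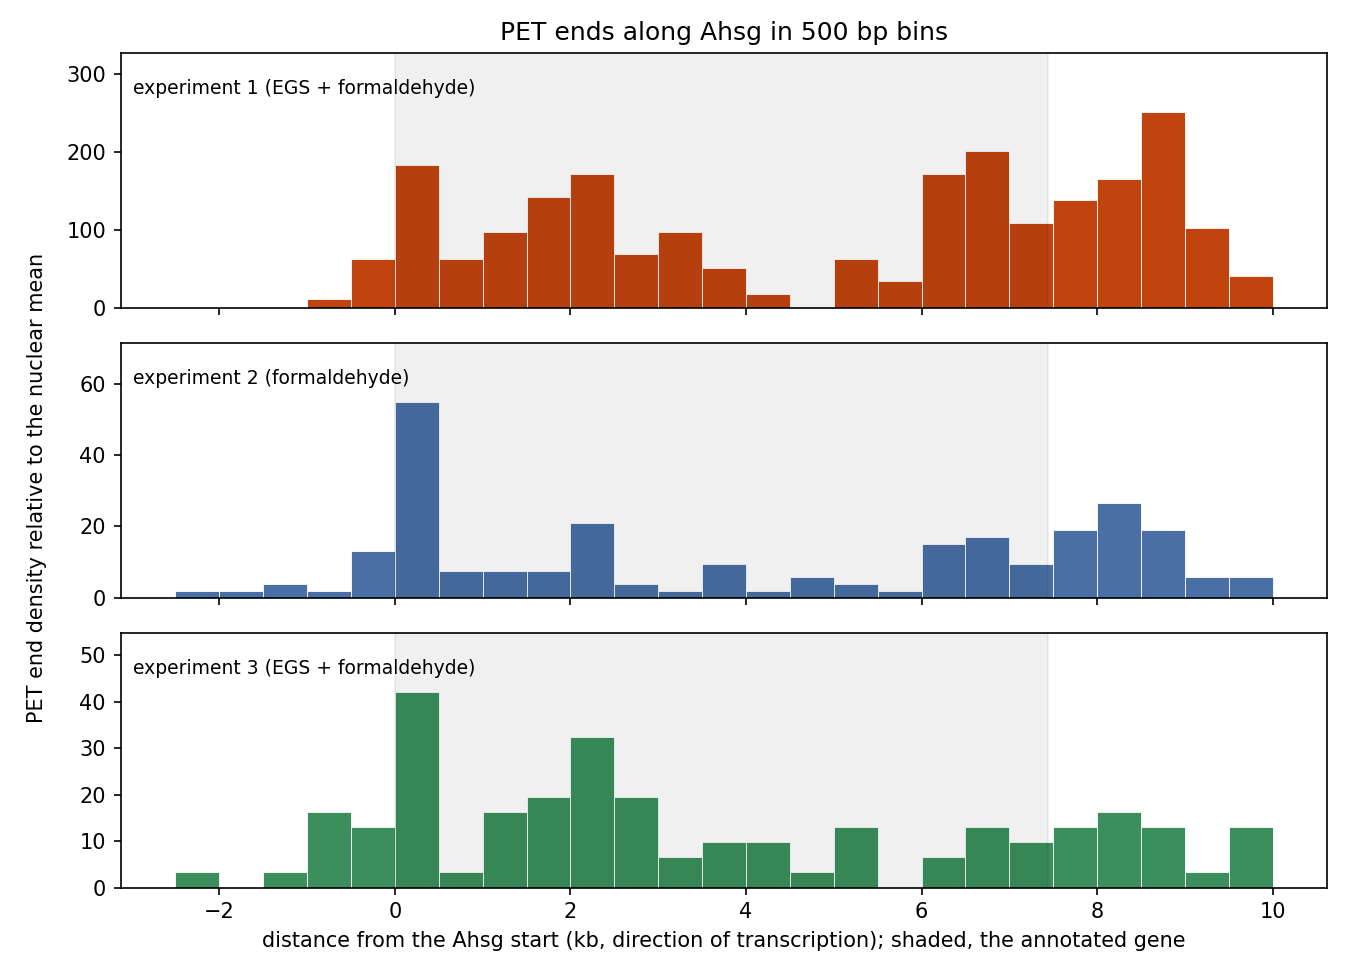
PET ends along Ahsg in 500 bp bins for the 3 experiments, as density relative to the nuclear mean (the 3 axes differ), against distance from the start in kb. The shaded stretch is the annotated gene. Experiments 2 and 3 peak in the first bin of the gene, at 54.9 and 42.2, and experiment 1 past its end, at 252.

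Around their starts the members were modestly denser than elsewhere. In the 2.5 kb either side of the start, against the rest of the gene and flank, the density ratio over the 8 members with a known start was 1.34 (1.15 to 1.55), 1.70 (1.39 to 2.07) and 1.82 (1.45 to 2.29). Over all protein-coding genes with a known start it was 3.58, 1.38 and 2.06. Ahsg was the one member whose interval lay below 1, at 0.721 (0.579 to 0.894) in experiment 1, and without it the members' ratio in experiment 1 was 1.65 (1.34 to 2.03). Itih4 leaned to its start at 1.70 (0.975 to 2.89), 2.57 (1.52 to 4.33) and 2.46 (1.43 to 4.21). From 250 bases before to 50 after the start, a stretch that includes the sequences shown, Ahsg had 11, 7 and 6 ends (relative density 105, 22.1 and 32.5), Hpx 6, 6 and 5, Itih4 6, 4 and 4, and Itih1 3, 2 and 1. Fetub has 2 annotated starts. The first, at 22918382, had 0, 0 and 2 ends, and the second, at 22920222, had 7, 2 and 0. The densest Fetub bin of experiment 1 lay 1.5 to 2.0 kb from the first start, with 7 ends. In experiment 2 that bin and the bin at 2.5 to 3.0 kb tied at 4 ends, and in experiment 3 the highest bins, with 3 ends each, began 10.5 and 13.5 kb from it.

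The share of short PETs over the set was above that over all protein-coding genes in experiments 1 and 2, and in experiment 3 it rested on Itih4. The share of member ends whose partner lay at most 8 kb away was 43.4% (40.1 to 46.8), 23.9% (20.1 to 28.1) and 25.3% (20.9 to 30.0) in experiments 1, 2 and 3. Over all protein-coding genes it was 28.4%, 7.90% and 16.7%, outside the members' intervals each time. Both ends of a short PET can be counted and are not independent, so the members' intervals are too narrow. In experiment 3 Itih4 had the highest share, at 55.7% (42.4 to 68.5), while Fetub had 0 of 23 ends (0 to 14.8%). Without Itih4 the members had 42.9% (39.5 to 46.5), 22.8% (18.8 to 27.2) and 19.2% (15.0 to 24.1), and the last of these intervals holds the 16.7% of all protein-coding genes. Without Ahsg they had 42.2%, 22.6% and 25.0%. Partners on another chromosome made up 53.2%, 72.4% and 67.4% of member ends, against 67.4%, 87.1% and 78.1% for all protein-coding genes.

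**Figure D3:**
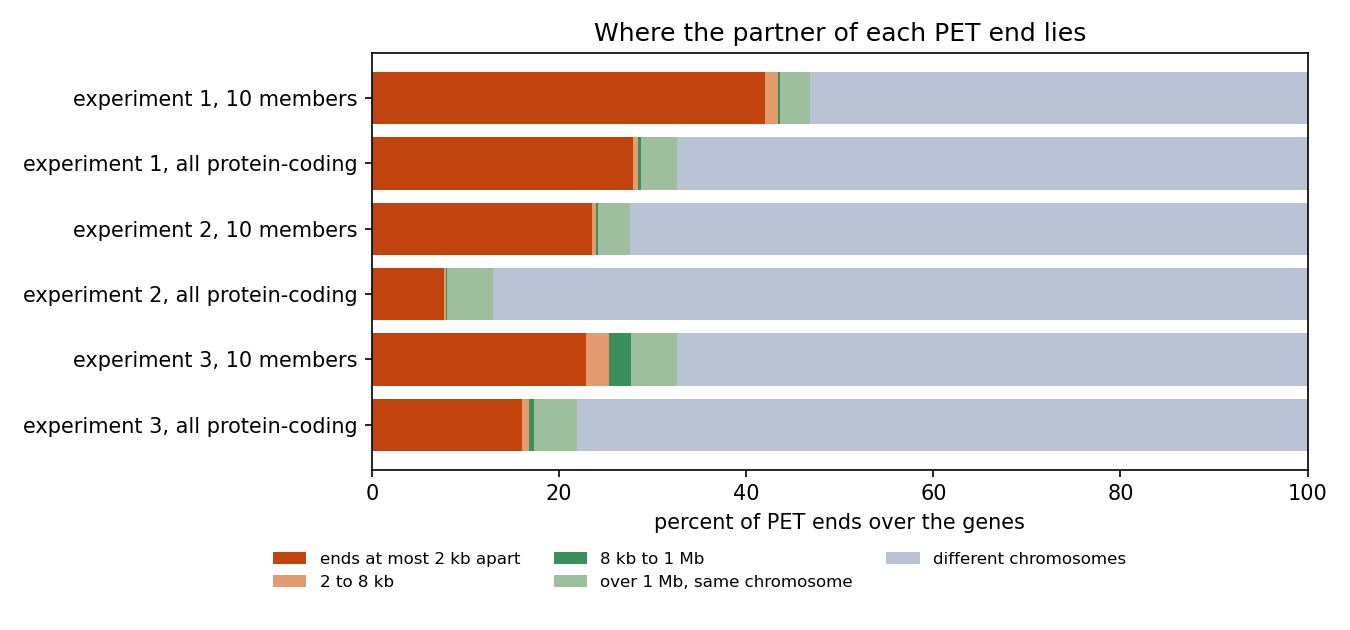
Percent of PET ends by where the partner end lies, for the 10 members and for all protein-coding genes in each experiment. The share with a partner at most 8 kb away is larger for the members in each experiment. It is 43.4%, 23.9% and 25.3% for the members against 28.4%, 7.90% and 16.7%. In experiment 3 the difference rests on Itih4, without which the members' share is 19.2% (15.0 to 24.1).

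In the Ahsg-Fetub-Hrg cluster (16:22889515-22964159, flanks included), 898 ends and 153 PETs with both ends inside were counted. Of these PETs 6 spanned over 2 kb, 4 in experiment 1 and 1 each in experiments 2 and 3. Both PETs over 8 kb ran from just past the end of Ahsg into Fetub. That of experiment 1 joined 22901302, which is 1851 bp past Ahsg and inside Gm30611, to 22920440, over 19138 bp. That of experiment 3 joined 22900285, 834 bp past Ahsg, to 22920476, over 20191 bp. On the Fetub side they landed 218 bp and 254 bp downstream of the second Fetub start, within the gene. The read of the experiment 1 PET that lies in Fetub has the same position as a read of one other PET, whose partner lies on chromosome 13. The other PETs over 2 kb lay within a single gene and its flanks: 3 in Ahsg, of 2063, 3642 and 2099 bp, and 1 in Hrg, of 3452 bp. The first of these has its left end 59 bp upstream of the Ahsg start, inside the sequence shown.

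In the Itih cluster (14:30883976-30945789), 469 ends and 90 PETs inside were counted, of which 7 spanned over 2 kb: 2 in experiment 1, 0 in experiment 2 and 5 in experiment 3. Of these, 2 joined different genes, both in experiment 3. A PET of 57467 bp joined 30886288, 188 bp upstream of the Itih4 start and inside the sequence shown, to 30943755, 466 bp upstream of the Itih1 start and beyond the bases shown. A PET of 26066 bp joined 30889600 in Itih4 to 30915666 in Itih3. The other 5 lay within a gene and its flanks, at 2324 and 4540 bp in Itih1, 6862 and 4505 bp in Itih4, and 2335 bp at Itih3. Each joining pair rests on 1 PET.

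**Figure D4:**
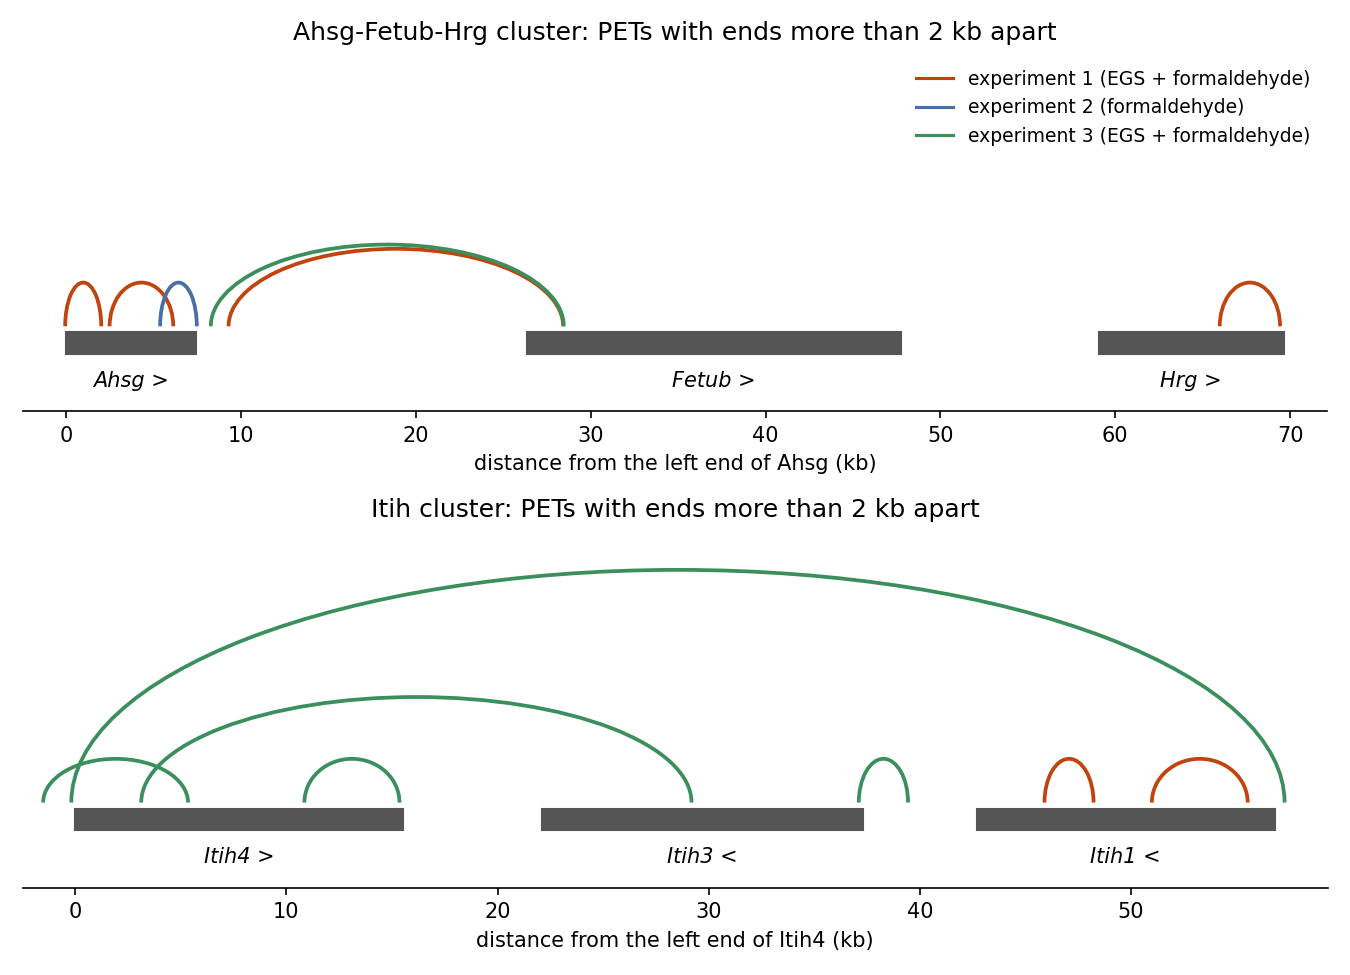
PETs with ends more than 2 kb apart within the Ahsg-Fetub-Hrg cluster (above) and the Itih cluster (below), drawn as arcs between their ends along the distance in kb from the left end of the first gene. Bars are the annotated genes, arrows their strands and colours the experiments, and arc height only follows the span. The 2 PETs between Ahsg and Fetub, of 19138 and 20191 bp, end near each other within Fetub, and both PETs that join different Itih genes came from experiment 3.

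Per 1000 ends counted, PETs over 2 kb numbered 6.68 (2.45 to 14.5) in the Ahsg-Fetub-Hrg cluster and 14.9 (6.00 to 30.8) in the Itih cluster. Over all protein-coding genes, PETs of 2 kb to the cluster length of 74.6 kb numbered 2.70 per 1000 ends, and 3.58, 0.939 and 4.90 in experiments 1, 2 and 3. The Itih cluster's rate in experiment 3 was 36.5 (11.9 to 85.2), the 1 rate of a single experiment whose interval lay clear of the protein-coding rate, and without experiment 3 that cluster had 2 PETs over 2 kb and none between genes. Of the 4 consecutive member pairs in the clusters, 2 were joined by a PET over 2 kb (Ahsg with Fetub, and Itih4 with Itih3), while 3.32% of 18349 consecutive protein-coding pairs at most 100 kb apart were. Ahsg with Fetub was joined in 2 experiments, as were 0.218% of all pairs (40 pairs). The second experiment is lost with a 1 kb flank or with read-1 positions that no other PET shares, which leave 1 PET, and with no flank 0 PETs are left. Joining depends on how many ends were sampled. Among the 851 pairs with at least the 708 ends of Ahsg and Fetub, 8.34% were joined and 0.705% (6 pairs) in 2 experiments. This comparison was chosen after the counts were seen. It was not made for Itih4 with Itih3, which had 334 ends and 1 PET in 1 experiment.

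Beyond 8 kb and up to 1 Mb, 8 PETs had an end over a member, spread over 6 of the 10 genes, and 4 of them are the ones between members. Itih1 was joined to Stimate over 75294 bp and Itih3 to Nisch over 262055 bp, both in experiment 3. Hp was joined to Cmtr2 over 641337 bp in experiment 3, and in experiment 2 to a position 137152 bp outside Zfhx3, over 477874 bp. Each was a single PET. Hrg, Hpx, Orm1 and Apcs had none in this range. The rate was 7.05 (3.64 to 12.3) per 1000 member ends, with a PET between members counted at both ends, and 3.06 (3.00 to 3.13) over protein-coding genes. The 12 member ends come from 8 PETs and are not independent, so the members' interval is too narrow. Experiment 3 decided this rate: it held 9 of the 12 ends, from 6 PETs, and without it the rate was 2.25 (0.464 to 6.57), against 1.86 over protein-coding genes.

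The wider acute-phase list mixed several kinds of gene. Of 43 genes for further acute-phase proteins, their receptors and the factors behind the response, 29, 7 and 19 reached a relative density of 2 in experiments 1, 2 and 3, beside 27.7%, 6.52% and 25.4% of protein-coding genes. Their medians were 3.88, 1.12 and 1.90, and 7 reached 2 in all experiments, beside 5.32%. The 3 highest were Cebpa at 69.9, 15.2 and 24.2, Cebpb at 53.3, 13.4 and 18.2, and Serpina3k at 83.6, 3.63 and 9.28. Cebpa and Cebpb encode C/EBP transcription factors, and Serpina3k a protease inhibitor of plasma from a family of close copies. The 3 lowest were Orm2, Orm3 and Mug2, the last a murinoglobulin at 0.306, 0.112 and 0.154, likewise from families of near-identical copies. Protein-coding genes outside the members, this list and the marker genes were ranked by distance to Ahsg in log2 relative density over the 3 experiments. The 5 nearest were Id2, Apoa5, Sephs2, Fabp1 and Errfi1, at distances of 0.341, 0.631, 0.652, 0.712 and 0.794. Hepatocyte markers such as Alb were thus not ranked. Id2, an inhibitor of basic helix-loop-helix factors and the nearest of these, had 78.3, 10.5 and 14.5. Apoa5 and Fabp1, an apolipoprotein and a fatty-acid-binding protein, had 86.6, 10.9 and 18.6, and 81.4, 7.17 and 15.7.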

How the data were processed

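PETs of 8 mouse liver Pol II ChIA-PET libraries were read from 1 table that the authors deposited, with experiment, linker, chromosome and position of both ends and a distance. These deposited positions and distances carry no unit beyond base pairs, and no column names a library or time point. The submitters' processing notes name Bowtie2 and the build mm10. Duplicate removal and read filters were not given in the sources used here. PETs with a mitochondrial end (12, 14 and 2239) were set aside. Distances are differences of positions. Gene spans, starts and sequences came from RefSeq on GRCm38.p6, the assembly of mm10. Starts and strand were found for 8 members (not Hp and Orm1) and 17492 of 21887 protein-coding genes. The genome length was the sum of the highest positions per chromosome, 2722232978 bp. Code ran in Python 3.11.15 with NumPy 2.4.6, pandas 2.3.3 and SciPy 1.17.1, and was tested on simulated data. The members, gene lists and comparisons were chosen with earlier results of these data known. Named genes were all members, genes beside each cluster, and the 3 highest and 3 lowest of the 43-gene list. The 5 nearest to Ahsg outside the members, that list and the markers, and partners in PETs of 8 kb to 1 Mb, were also named. Other flanks, distance limits, counting rules and folds were tried, and each experiment was left out in turn.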

Additional observations from a re-analysis of the deposited data

How the results depend on the processing

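No paired analysis was possible because the table names no library, so replicate numbers cannot be matched to PETs. Of 289 values recomputed under other settings, 239 stayed within the main value's interval or within 1.5 times a main count and 50 moved further. With a fold of 5 in place of 2, 1 member was called in all experiments, beside 0.388% of protein-coding genes. Taken singly, experiment 1 had 8 members at this fold, while experiment 2 had 1 and experiment 3 had 2. These single counts have no background, since the matching share of protein-coding genes was not computed. Without experiments 1, 2 and 3 in turn, 5, 8 and 5 members reached a fold of 2 in the rest. Of protein-coding genes, 5.54%, 19.0% and 5.64% did. Leaving out each experiment gave 2 to 5 PETs over 2 kb in the Ahsg-Fetub-Hrg cluster, with 1 to 2 between members. In the Itih cluster it gave 2 to 7, with 0 to 2 between members. It gave 2.25 to 12.0 member ends in PETs of 8 kb to 1 Mb per 1000 ends (2.25 without experiment 3). With a minimum distance of 4 kb or 8 kb the Ahsg-Fetub-Hrg cluster kept 2 PETs, and with 8 kb the Itih cluster 2. With a read-1 position that no other PET shares, or with a 1 kb flank, 1 PET joined Ahsg and Fetub, and with no flank 0, since both left ends lie past Ahsg. With no flank 1 PET joined Itih genes. The density near the start with 1 kb was 1.64 in experiment 1 and 2.30 in experiment 2, and without Ahsg 1.65 in experiment 1. Without Itih4 the share of ends with a partner at most 8 kb away was 19.2% in experiment 3. Leaving out a gene, and an experiment for the PETs of 8 kb to 1 Mb, was added after the data were seen. With only PETs between chromosomes, 4 members reached 2 in all experiments (2.96% of genes). Low counts limit Apcs, Orm1, the bins and starts of Fetub, and each PET between genes.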
